A study of Flaveria ramosissima and Flaveria robusta and Flaveria sonorensis with 9 samples.

Results

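The low CO2 response of leaves of F. sonorensis, a species of Flaveria with Type I C3-C4 photosynthesis per the labels, was examined gene by gene. F. sonorensis leaves kept for 4 weeks at low CO2 were compared with leaves at control CO2. A gene was included when its transcript abundance averaged at least 1 TPM over the 6 libraries of the species and its ID occurred once in the table. TPM gives transcript abundance relative to a total that is the same for every library, and each row of the table is treated as 1 gene. Of 29566 genes, 14578 met this rule. The gene just inside the limit averaged 1 TPM, and the highest of the 14980 genes left below it averaged 0.998 TPM.

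Rubisco fixes CO2, but it also reacts with oxygen, and photorespiration then recovers carbon from the product and releases part of it as CO2. This reaction with oxygen weighs more when CO2 is scarce. In C3-C4 plants of Type I, CO2 from photorespiration is set free mainly in the bundle sheath, the cells around the veins, where part of it is fixed again. Plants of Type II add some activity of the C4 cycle, which C4 plants run in full to concentrate CO2 around Rubisco in the bundle sheath.

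The low CO2 group had 3 numbered libraries from leaves kept for 4 weeks at a level labelled 100, and the control group had 3 from leaves at a level labelled 380. The labels write these levels with the unit of light intensity, so they are quoted as labelled. Both groups were newly expanded mature leaves grown under 200 µmol m-2 s-1 of light, at 22 °C, 16 h of light and 8 h of dark, and 70% humidity. The same design was applied to C3 F. robusta, Type II C3-C4 F. ramosissima and C4 F. trinervia, which gave 24 libraries in all. The labels name no strain, plant age or transgene, and the sources used here leave unstated whether the libraries within a group were separate plants and whether a CO2 level had more than 1 growth run. Effects of CO2 level and of growth run therefore cannot be told apart. Whole leaves hold many cell types, so fewer cells of a type and less RNA per cell cannot be told apart either.

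The deposited table pairs 0 of its IDs with gene names, so the leaf label could not be checked against markers and most genes are described by rank. The read depth is unknown, because TPM keeps no read number. The columns of F. sonorensis summed to between 85.9% and 87.0% of the fixed total, and those of the other species to between 91.2% and 92.6%. Genes listed at 0 numbered 13380 to 13820 per library in F. sonorensis and 6358 to 8735 in F. ramosissima. They numbered 11791 to 12652 in F. robusta and F. trinervia. Within F. sonorensis, rank correlations across genes were 0.965 to 0.975 among the low CO2 libraries and 0.973 to 0.979 among the control libraries. Between the groups they were 0.905 to 0.931. The first principal component held 63.8% of the variance of the 6 libraries and separated the CO2 levels. The spread between libraries was somewhat larger at low CO2, with a median SD of log2(TPM + 1) of 0.20 in low CO2 leaves and 0.17 in control leaves. In F. ramosissima, genes of at least 100 TPM had a median coefficient of variation of 14.7% at low CO2 and 33.3% at control CO2, against 10.6% and 9.62% in F. sonorensis. The counts of genes whose change differed between species are therefore given with and without F. ramosissima.

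More genes were lower than higher at low CO2. By limma on log2(TPM + 1), with a Benjamini-Hochberg adjusted p below 0.05, 1450 genes (9.95% of those tested) were higher and 2272 genes (15.6%) were lower in low CO2 leaves. No overlap between the libraries of the CO2 levels was seen for 2487 genes (17.1%) in the higher direction and 3891 genes (26.7%) in the lower direction. The direction of the calls depended on the scaling. Median-ratio scaling of the libraries gave 2013 higher calls and 1911 lower calls, and quantile normalization gave 2001 higher calls and 1889 lower calls. The median change over all genes shifted by 0.07 and 0.11 on the log2 scale with these scalings. Under the deposited values and both scalings, 1405 genes were called higher each time and 1650 were called lower each time, and 0 genes were called in opposite directions. The counts also rested on control library 3, without which 822 genes were higher and 1225 lower, and on control library 2, without which 920 genes were higher. Calls made in each of the 6 fits that left out 1 library numbered 743 of the 1450 and 1099 of the 2272.

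Most called changes were of moderate size. Among the genes called higher, the median change was 0.76 on the log2(TPM + 1) scale, which is a 1.69-fold change, and among the genes called lower the median size was 0.83, or 1.78-fold. A change of at least 1 log2 unit was measured for 421 genes called higher and 844 called lower. At least 3 log2 units were reached by 16 genes called higher and 37 called lower. Low genes are understated on this scale because of the pseudocount of 1. Of the 10856 genes not called, 109 had a change of at least 1 log2 unit.

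**Figure D1:**
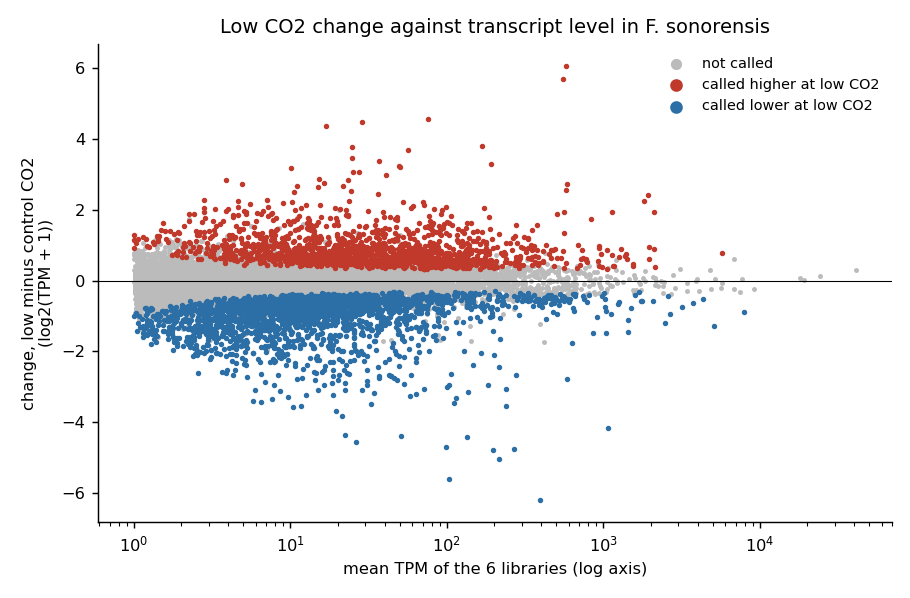
Each point is 1 of the 14578 F. sonorensis genes, with its mean TPM over 6 libraries on a log axis and its change at low CO2 against control CO2 on the log2(TPM + 1) scale. Red points were called higher (1450 genes), blue points were called lower (2272 genes) and grey points were not called, and the largest changes reached 6.07 upwards and 6.22 downwards.

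The largest rise among genes of at least 10 TPM was that of Gene21045. It had 1427, 1026 and 942 TPM in low CO2 leaves, against 11.97, 14.64 and 21.36 TPM in control leaves. All 3 low CO2 libraries thus lay far above all 3 control libraries. The mean was 1132 ± 259 TPM at low CO2 and 16.0 ± 4.84 TPM at control CO2 (SD, n = 3 each), a 70.8-fold ratio, and the change was 6.07 ± 0.22 on the log2(TPM + 1) scale (SE, adjusted p by limma = 6.0e-06). By level it ranked 92 among the F. sonorensis genes at low CO2 and 5845 at control CO2. At both CO2 levels the same ID was lower in the other species than in F. sonorensis. It had 5.67, 0.48 and 0.73 TPM at low CO2 in F. robusta, against 0, 0.21 and 0 TPM at control CO2. In F. ramosissima it had 93.0, 6.79 and 29.1 TPM at low CO2, against 0.08, 0 and 0.10 TPM at control CO2. It is listed at 0 in all 6 libraries of F. trinervia. In F. robusta and F. ramosissima the low CO2 libraries also lay above the control libraries. The difference between species was not tested for Gene21045, since it did not reach a mean of 1 TPM in every species.

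The largest fall among such genes was that of Gene13344. It had 5.94, 24.5 and 4.86 TPM in low CO2 leaves, against 604, 1064 and 658 TPM in control leaves. The groups did not overlap, and low CO2 library 2 was the highest of its group. The mean was 11.8 ± 11.0 TPM at low CO2 and 775 ± 251 TPM at control CO2 (SD, n = 3 each), which was 65.9-fold lower, with a change of -6.22 ± 0.50 on the log2(TPM + 1) scale (SE, adjusted p by limma = 0.00023). Without low CO2 library 2 the change was -6.88 on that scale. In the other species Gene13344 stayed abundant at low CO2. It averaged 612 ± 243 TPM at low CO2 and 1089 ± 547 TPM at control CO2 in F. robusta. The means were 606 ± 143 TPM and 759 ± 271 TPM in F. ramosissima, and 402 ± 143 TPM and 797 ± 42.7 TPM in F. trinervia, in the same order. The libraries of the CO2 levels overlapped in F. robusta and F. ramosissima but not in F. trinervia. The change in F. sonorensis differed from that in F. robusta by -5.42, from that in F. ramosissima by -5.92 and from that in F. trinervia by -5.16 (log2 scale, limma adjusted p = 6.89e-05, 2.70e-05 and 0.00018).

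Some genes called higher in F. sonorensis averaged at least 10 TPM without overlap and were called above the mean change of the other species. Among these, Gene08109 lay furthest above that mean. It had 306, 240 and 284 TPM in low CO2 leaves, against 76.9, 60.4 and 62.5 TPM in control leaves, with no overlap. Its mean was 277 ± 34.0 TPM at low CO2 and 66.6 ± 8.95 TPM at control CO2 (SD, n = 3 each), a 4.15-fold ratio and a change of 2.04 ± 0.14 on the log2(TPM + 1) scale (SE, adjusted p by limma = 0.00011). F. robusta moved the same way, with 45.8 ± 8.92 TPM at low CO2 and 16.4 ± 6.93 TPM at control CO2, and its change was not shown to differ from that of F. sonorensis (difference 0.53, limma adjusted p = 0.441). F. ramosissima and F. trinervia moved the other way. The means were 0.617 ± 0.310 TPM at low CO2 and 5.06 ± 0.410 TPM at control CO2 in F. ramosissima. In F. trinervia they were 1.65 ± 0.316 TPM at low CO2 and 17.2 ± 0.896 TPM at control CO2. The change in F. sonorensis exceeded that in F. ramosissima by 3.96 and that in F. trinervia by 4.82 (log2 scale, limma adjusted p = 1.92e-06 and 5.47e-08).

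Gene02403 stood at the other end of the same comparison, after Gene13344. It had 27.5, 20.6 and 13.4 TPM in low CO2 leaves, against 195, 234 and 192 TPM in control leaves, again with no overlap. Its mean was 20.5 ± 7.05 TPM at low CO2 and 207 ± 23.4 TPM at control CO2 (SD, n = 3 each), which was 10.1-fold lower, with a change of -3.32 ± 0.23 on the log2(TPM + 1) scale (SE, adjusted p by limma = 0.00011). In F. robusta, F. ramosissima and F. trinervia the libraries of the CO2 levels overlapped. The change in F. sonorensis differed from theirs by -3.92, -3.92 and -2.99 (log2 scale, limma adjusted p = 0.0008, 0.0018 and 0.0078). The direction and the call of the changes of Gene21045, Gene13344, Gene08109 and Gene02403 within F. sonorensis held under each of the 16 alternative settings tried for each of them.

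**Figure D2:**
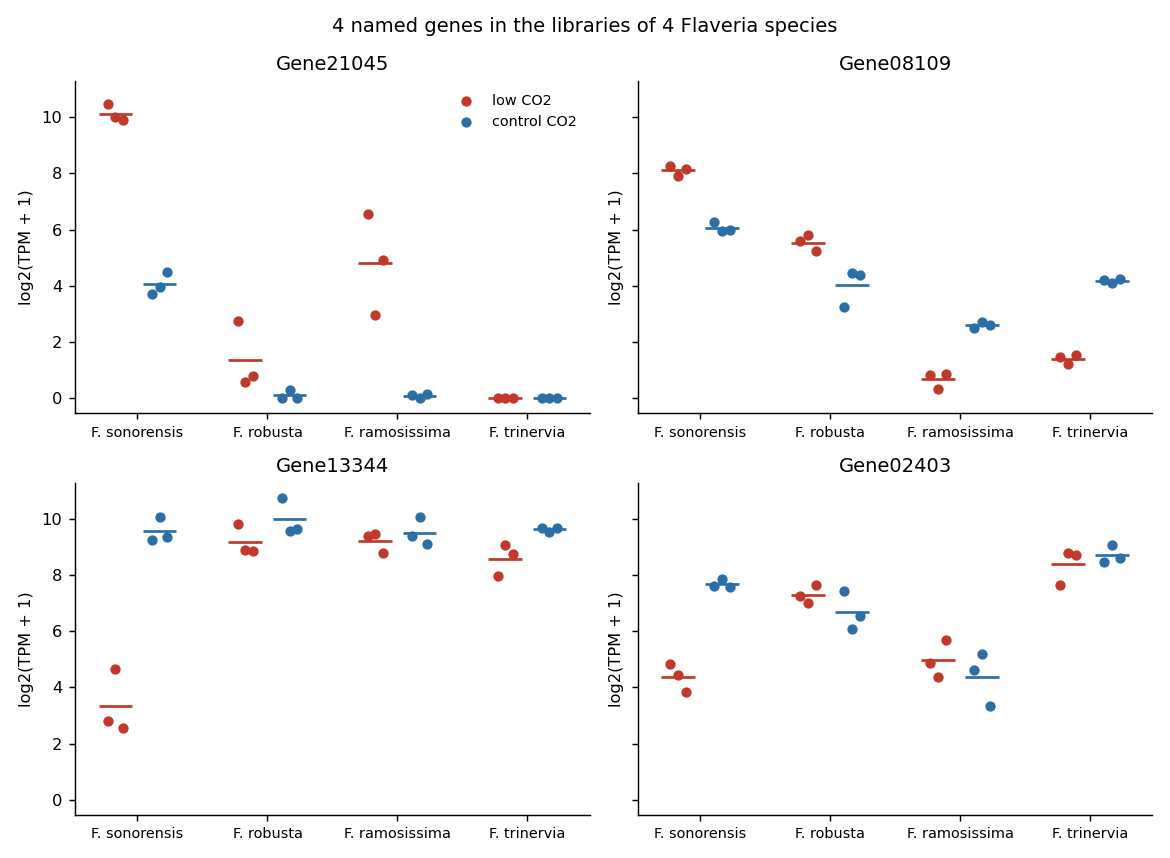
Points are single libraries of Gene21045, Gene08109, Gene13344 and Gene02403 in 4 species, on the log2(TPM + 1) scale, with low CO2 libraries in red left of control libraries in blue, and lines mark the mean of 3 libraries. In F. sonorensis the groups did not overlap for any of these genes, and Gene08109 had its low CO2 libraries above its controls in F. sonorensis and F. robusta and below them in F. ramosissima and F. trinervia.

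Most of the 10 most abundant transcripts were not called, while the share called over the 100 most abundant was larger. Of the 10 most abundant genes of F. sonorensis, 0 were called higher, 1 was called lower and 9 were not called. Of the 100 most abundant, whose means started at 1048 TPM, 21 were called higher and 20 lower. Of all genes tested, 9.95% were called higher and 15.6% lower. The most abundant gene had 46967, 46612 and 43499 TPM in low CO2 leaves, against 37567, 36793 and 36409 TPM in control leaves. Its groups did not overlap, but the change of 0.31 ± 0.11 on the log2 scale did not pass the threshold (SE, limma adjusted p = 0.0701). The genes of rank 2, 3 and 4, with means between 17666 and 25480 TPM in either group, had overlapping groups.

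Among the called genes, the gene of rank 6 had the largest loss in TPM. It had 5280, 7189 and 4432 TPM in low CO2 leaves, against 9925, 10617 and 10318 TPM in control leaves (log2 change -0.90, limma adjusted p = 0.0071). The second largest loss was 2595, 4056 and 2325 TPM in low CO2 leaves, against 6809, 7878 and 6777 TPM in control leaves (log2 change -1.30, limma adjusted p = 0.003). These abundant genes fell by much less on the log2 scale than the gene with the third largest loss. That gene had 112, 148 and 80.6 TPM in low CO2 leaves, against 1726, 2464 and 1894 TPM in control leaves (log2 change -4.17, limma adjusted p = 4.87e-05). Its change minus the mean change of the other species was -2.40 on the log2 scale (limma adjusted p = 0.0129).

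The largest gain in TPM among the called genes was 7506, 7285 and 6871 TPM in low CO2 leaves, against 4969, 4010 and 3790 TPM in control leaves (log2 change 0.77, limma adjusted p = 0.004). The second had 2600, 3001 and 4062 TPM in low CO2 leaves, against 839, 476 and 529 TPM in control leaves (log2 change 2.41, limma adjusted p = 0.00047). The third had 4332, 3191 and 1604 TPM in low CO2 leaves, against 624, 565 and 569 TPM in control leaves (log2 change 2.26, limma adjusted p = 0.0018). In each of these genes the low CO2 libraries lay above the control libraries, and in the third they spread over a wider range than the controls.

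**Figure D3:**
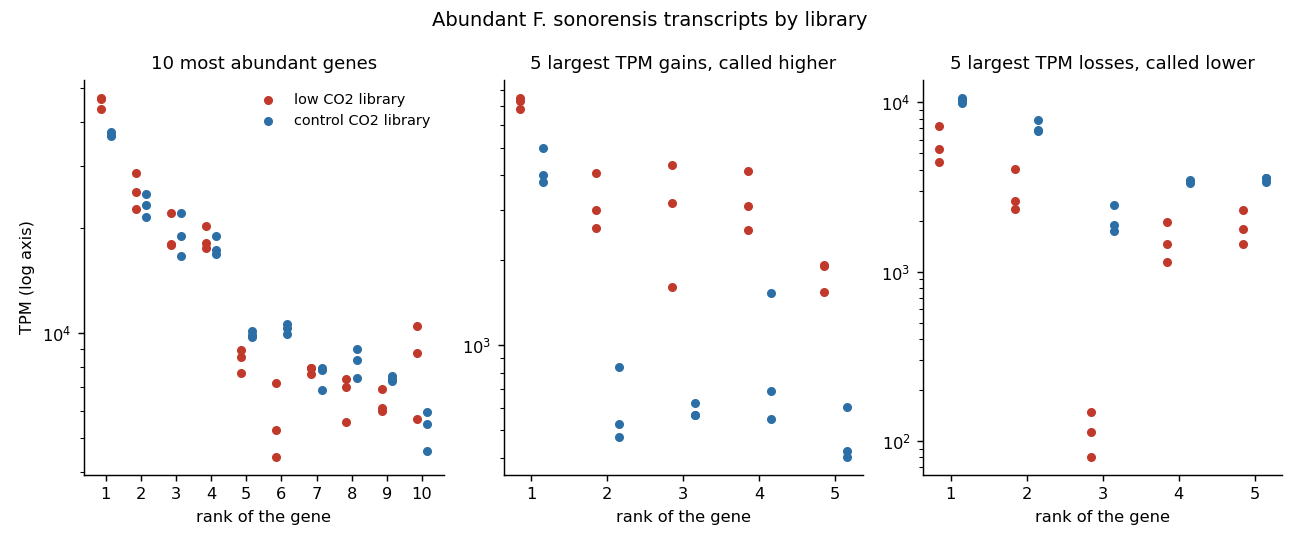
Points are the TPM values of single F. sonorensis libraries on log axes, with low CO2 in red left of control CO2 in blue, for the 10 most abundant genes (left) and for the 5 called genes with the largest gains (middle) and losses (right) in TPM. In the left panel only the gene of rank 6 was called, and in the other panels no low CO2 library overlapped the controls.

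The genes called higher held 20.0 ± 0.87% of the TPM sum in low CO2 leaves and 11.0 ± 0.84% in control leaves (SD, n = 3 each). The genes called lower held 12.1 ± 0.73% in low CO2 leaves and 21.6 ± 0.63% in control leaves. Genes not called held 67.8 ± 0.51% in low CO2 leaves and 67.3 ± 0.25% in control leaves. The calls chose these genes by the same values, so the shares are a description. The summed difference in mean TPM was 77825 TPM over the genes called higher, of which 22.2% lay in 10 genes and 57.9% in 100 genes. Over the genes called lower it was 82101 TPM, with 25.9% in 10 genes and 60.3% in 100 genes. A small part of the called genes thus carried most of the TPM that differed.

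No difference in the evenness of the transcript pool was detected beyond the spread between libraries. The 100 most abundant genes held 38.6%, 41.9% and 39.4% of the TPM sum in low CO2 leaves, against 39.0%, 41.0% and 39.7% in control leaves. The difference was 0.041 percentage points (two-sided exact permutation test with 20 arrangements, p = 1), and its sign changed when single libraries were left out (-0.92 without low CO2 library 2, -0.43 without control library 1 and -0.05 without control library 3). The effective number of expressed genes, which is the number of equally abundant genes with the same entropy, was 1640, 1382 and 1550 in low CO2 leaves, against 1705, 1488 and 1640 in control leaves (two-sided exact permutation test, p = 0.5). With 3 against 3 libraries the smallest p this test allows is 0.1.

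The share of genes called rose with transcript level. Calls were made for 18.4% of 6947 genes of 1 to 10 TPM, 30.7% of 6431 genes of 10 to 100 TPM, 39.1% of 1094 genes of 100 to 1000 TPM and 43.4% of 106 genes of at least 1000 TPM. The median SE of the change was 0.215, 0.143, 0.129 and 0.125 in these classes. Median called changes were 0.94, 0.73, 0.70 and 0.71 for higher calls, and -0.98, -0.74, -0.57 and -0.74 for lower calls. The part of precision in the share called was not tested. The direction of the calls also moved with level in the deposited values. Higher calls made up 25.2% of the calls at 1 to 10 TPM, 43.3% at 10 to 100 TPM, 59.3% at 100 to 1000 TPM and 45.7% above that. After median-ratio scaling these shares were 33.4%, 56.6%, 77.0% and 61.1%. After quantile normalization they were 48.8%, 52.7%, 53.2% and 46.8%, so the shift in direction between low and abundant genes was not seen with that scaling.

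**Figure D4:**
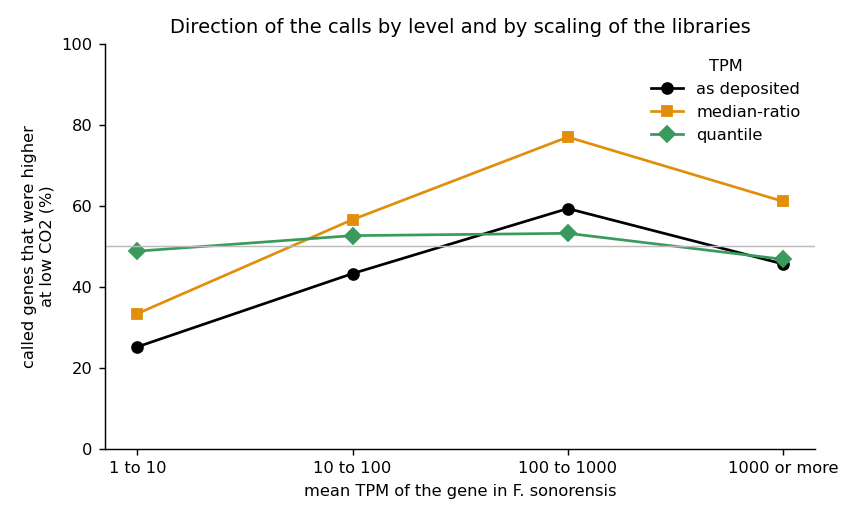
The share of called F. sonorensis genes that were higher at low CO2 (percent) is plotted against 4 classes of mean TPM, for the values as deposited and after 2 scalings. The share was 25.2% in the lowest class and 59.3% in the class of 100 to 1000 TPM as deposited, and stayed between 46.8% and 53.2% after quantile normalization.

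Among the 14578 genes, changes between absence and presence were rare. The limit of 1 TPM left out weaker changes of this kind. A gene of this kind passed the limit only through the group where it was found, so the calls below are a description. Only 1 gene was listed at 0 in the 3 control libraries and above 0 in all low CO2 libraries, with 18.7, 0.30 and 10.5 TPM at low CO2. The reverse was seen in 4 genes, of which 3 were called lower. The most abundant of them was listed at 0 in the low CO2 libraries and had 3.75, 11.4 and 19.1 TPM in the control libraries. Its control libraries spread widely, as did the low CO2 libraries of the first gene.

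Genes found in F. sonorensis but not in the other species were mostly of low abundance, and the share called is given beside their level. At a mean of at least 1 TPM, 8632 of the 14578 genes were also found in all 3 other species, and 28.9% of them were called. Of the 1736 genes found in none of the other species at this level, 14.2% were called (111 higher and 135 lower), and these genes held 1.96% of the TPM sum. The median level was 2.25 TPM for genes found in none of the other species and 19.5 TPM for genes found in all of them. At 10 to 100 TPM the share called was 29.9% of 137 genes found in none of the others and 30.1% of 5260 genes found in all. At 1 to 10 TPM it was 12.7% and 21.8%. A set of 274 F. sonorensis genes was listed at 0 in all 18 libraries of the other species, and 23 of them (8.39%) were called higher and 18 (6.57%) lower, against 9.95% and 15.6% of all genes tested. The median level of this set was 2.645 TPM. Of all F. sonorensis genes of 1 to 10 TPM, 4.62% were called higher and 13.7% lower. The sources used here do not give how genes of the 4 species were matched to the rows, and its part in these counts was not tested.

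The genes called in F. sonorensis mostly changed in the same direction in the other species. Among the 8632 genes found in all species, 977 were called higher in F. sonorensis, and 576 of them had a change above 0 in each of the other 3 species. A change above 0 was measured for 75.5% of them in F. robusta, for 81.2% in F. ramosissima and for 83.2% in F. trinervia, against 45.7%, 43.3% and 52.3% of all genes tested, in the same order of species. Of the 1521 genes called lower in F. sonorensis, 849 had a change below 0 in each of the other species. The shares below 0 were 81.1% in F. robusta and 82.8% in F. ramosissima, with 73.4% in F. trinervia, against 54.3%, 56.7% and 47.7% of all genes tested. The median change of the genes called higher was 0.70 in F. sonorensis, 0.36 in F. robusta and 0.43 in F. ramosissima, with 0.40 in F. trinervia. For the genes called lower the medians were -0.74, -0.48, -0.41 and -0.28, in the same order. The genes were chosen on the F. sonorensis values, so the larger medians there are a description. The share of all genes tested with the same sign in each of the other species is not given here, so the counts of 576 and 849 are a description too.

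The difference of the change between species was tested directly in 1 limma model of the 24 libraries. The change in F. sonorensis differed from the mean change of the other 3 species for 316 of the 8632 genes (3.66%), with 156 above the mean of the others and 160 below it, and 1445 genes had an unadjusted p below 0.05. Of the 316 genes, 250 were also called within F. sonorensis in the same direction, 108 of them higher and 142 lower. A further 64 were not called within F. sonorensis, and 2 were called in the opposite direction. Of all 8632 genes, 11.3% were called higher and 17.6% lower within F. sonorensis. The same F. sonorensis values enter both tests, so this overlap is a description. The spread between the F. ramosissima libraries entered the test of the difference between species. With F. ramosissima left out of the contrast but kept in the model, 320 genes differed from the mean of F. robusta and F. trinervia (172 above and 148 below). When its libraries were left out of the model as well, 1316 genes differed from the mean of F. robusta and F. trinervia (15.2%; 675 above and 641 below), among them 313 of the 316 genes. The median SE of the difference was 0.26 with F. ramosissima and 0.20 without it. The count also fell when 1 F. sonorensis library was left out, to between 156 and 225 genes.

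Among the 108 genes called higher in F. sonorensis and above the other species, the median change was 1.10 in F. sonorensis and -0.05 for the mean of the others. The others changed on average in the opposite direction for 58 of these genes, and that opposite change was itself called for 23. Among the 142 genes called lower, the medians were -1.28 in F. sonorensis and 0.04 for the others, with 78 genes opposite in sign and 22 of these called. The mean change of the others was called in the same direction as in F. sonorensis for 24 of the 108 genes and 21 of the 142. It was not called in either direction for 61 of the 108 and 99 of the 142. The rest of these genes included both changes that ran against those of the others and changes of the same sign but another size. The genes were chosen for this difference, so the medians and the counts are a description. The share of all genes tested for which the mean change of the others was called is not given here.

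Against single species, the change in F. sonorensis differed from that in F. robusta for 473 genes (5.48%; 290 above and 183 below). It differed from that in F. ramosissima for 152 genes (1.76%; 75 above and 77 below) and from that in F. trinervia for 360 genes (4.17%; 134 above and 226 below). All of these contrasts share the F. sonorensis libraries and 1 estimate of the spread. Without the F. ramosissima libraries in the model the counts were 1468 against F. robusta and 1346 against F. trinervia. The counts thus moved with the libraries that entered the model, and they do not rank the species by likeness to F. sonorensis.

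A change that was called within F. sonorensis and differed in the same direction from each of the 3 other species was found for 35 genes (0.405%). They comprised 14 genes called higher, with changes of 0.58 to 2.66 and a median of 1.52 on the log2 scale, and 21 genes called lower, with changes of -6.22 to -0.73 and a median of -1.66. In F. robusta, F. ramosissima and F. trinervia the median changes were -0.06, -0.06 and -0.14 for the 14 genes, and 0.11, 0.32 and 0.09 for the 21 genes. The change had the opposite sign in all 3 other species for 6 of the 14 and 10 of the 21. The 35 genes were chosen for differing from each species, so these medians and signs are a description. Gene13344 and Gene02403 were among the 21 genes. Of the 35 genes, 26 were found under the deposited values and both scalings. When 1 F. sonorensis library was left out, the list held between 20 and 33 genes in all, of which between 19 and 27 were among the 35. The genes called higher numbered 15 without control library 1, but 6 without low CO2 library 1, 2 or 3, 3 without control library 2 and 5 without control library 3. The genes called lower numbered between 17 and 22 in these fits. With the F. ramosissima libraries left out, 256 genes differed from both remaining species, which is a weaker demand, and these included all 35.

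**Figure D5:**
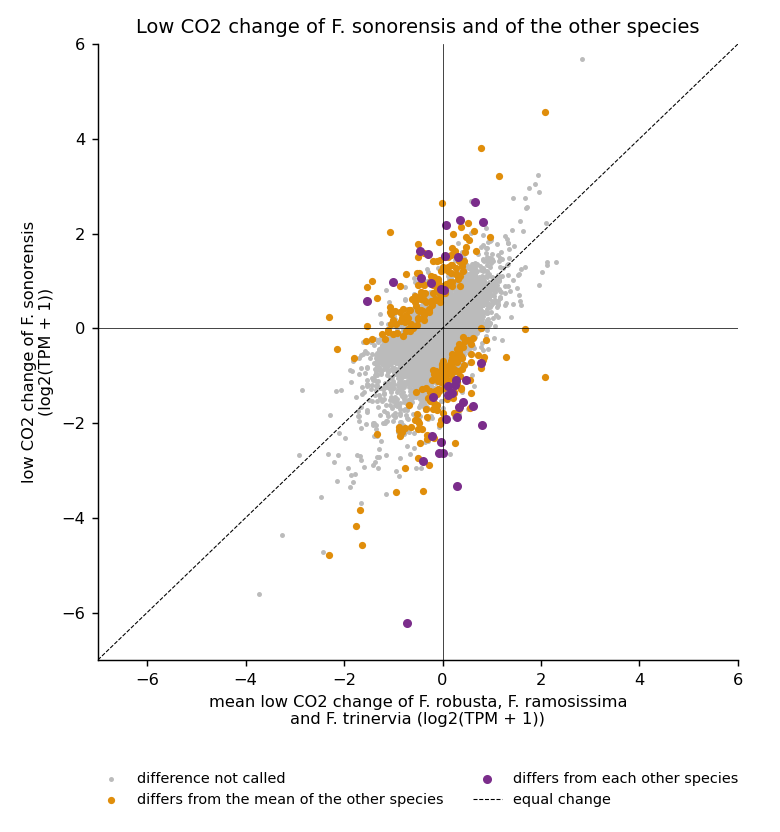
Each point is 1 of 8632 genes, with its low CO2 change in F. sonorensis on the vertical axis and the mean change of F. robusta, F. ramosissima and F. trinervia on the horizontal axis, both on the log2(TPM + 1) scale. Orange points differed from the mean of the other species, purple points differed from each of them (35 genes), grey points were not called, and the dashed line marks an equal change.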

How the data were processed

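Per the labels, mRNA of newly expanded leaves was read from both ends over 150 bp. The deposited values are TPM, which the authors made by aligning reads to the genome of each species with STAR and estimating abundance with RSEM, per the methods stated for these species. Those methods do not describe the low CO2 treatment and give other growth conditions than the labels. The submitters' processing notes also name edgeR, and its role is not stated there. Because RSEM shares out reads between gene copies that they match equally, near-identical copies have uncertain values. All 24 library columns were used and 0 were left unused. In all, 8 rows were left out, as they carry 4 repeated IDs. TPM keeps no depth, and the spread between libraries was the measure of precision. Nothing says that these were separate plants, so p-values measure only the spread between these libraries, which may be technical.

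A minimum mean of 1 TPM was set. Tests used limma 3.58.1 in R 4.3.3 on log2(TPM + 1), with eBayes and a mean-variance trend, two-sided, with Benjamini-Hochberg adjustment over all genes tested and a threshold of 0.05. Within F. sonorensis the 6 libraries of the species were fitted. Between species, 1 mean per species and CO2 level was fitted over 24 libraries, on genes whose mean reached 1 TPM in every species. Single values per library were compared by exact permutation. Library numbers were shared between groups, but the deviations of same-numbered libraries correlated only weakly (-0.07, 0.14 and 0.08), so the fits had no replicate block.

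Named genes were, in each direction, the largest log2 change among called genes that averaged 10 TPM or more without overlap, and the largest difference from the other species among such genes called in that contrast, at most 2 IDs each way. The members, the lists and the tests were chosen with earlier results of these data known. The planned lists of the C4 shuttle, photorespiration, the Calvin-Benson cycle and cell type markers were not used, because 0 IDs are paired with gene names. Alternatives covered the pseudocount, the minimum TPM, the scaling, the variance trend, library weights, the block and left-out libraries. A long-read F. ramosissima sample of mixed organs was left out of this comparison.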

Additional observations from a re-analysis of the deposited data

Results flagged for a closer look

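The low CO2 change of F. sonorensis differed from the mean change of the other 3 species, by the contrast in the 24-library limma model, for 316 of 8632 genes (3.66%). Among them were 3 of the named genes, and Gene21045 was not tested. Gene08109 and Gene02403 were named because they were called in this contrast with a large difference. Their values below are therefore a description. The difference was 3.11 ± 0.28 on the log2 scale for Gene08109 (SE, limma adjusted p = 1.97e-06), and F. robusta shared its direction. It was -5.50 ± 0.52 for Gene13344 (limma adjusted p = 2.99e-06) and -3.61 ± 0.50 for Gene02403 (limma adjusted p = 0.00029). Over the alternatives tried, the adjusted p of these differences ranged from 2e-08 to 0.0003 for Gene08109, from 1.1e-07 to 4.65e-05 for Gene13344 and from 2.28e-06 to 0.0055 for Gene02403. The difference of Gene08109 was 4.39 without F. robusta and 2.25 without F. trinervia, and that of Gene13344 was -6.17 without F. sonorensis low CO2 library 2.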

How the results depend on the processing

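The number of genes whose change differed from the mean of the other species was 316, and it was 162 with a minimum of 5 TPM, 689 with no minimum, 514 after quantile normalization, 1831 with library weights and 1316 without the F. ramosissima libraries. Leaving the F. ramosissima libraries out, and leaving out single libraries for the 35 genes below, were chosen after seeing the data. The 35 genes that differed from each species became 76 after quantile normalization and 256 without F. ramosissima. Leaving out 1 F. sonorensis library gave 822 to 1330 genes higher, 1225 to 2068 genes lower, 156 to 225 genes different from the mean of the others, 20 to 33 genes different from each, and a difference in the share of the top 100 genes of -0.92 to 0.73 percentage points. The cause of these shifts was not tested, except that setting a minimum changes the number of genes tested. The counts of genes higher and lower stayed within 1.5 times under the other settings (1182 to 2013 and 1826 to 2872). With a replicate block, 1497 genes were higher, 2200 were lower and 236 differed from the mean of the others. The correlations of same-numbered libraries were -0.07, 0.14 and 0.08, and not every library correlated best with its own number. The named changes kept direction and call. Depth limits could not be given, since TPM holds no read number.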
